A study of Rattus norvegicus with 16 samples.

Results

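The subunits of oxidative phosphorylation were followed across 16 RNA-seq libraries of rat heart. They were taken from the deposited tables by gene name: names that begin Nduf with a subunit letter and number, Sdha to Sdhd, names that begin Uqcr, Cyc1, Cycs, the Cox4 to Cox8 forms and names that begin Atp5, together with the 13 protein genes of mitochondrial DNA. This gave 97 rows of 17085, of which 84 are nuclear and 13 are mitochondrially encoded. Of the 84 nuclear rows, 7 were counted as pseudogenes: those with -ps in the name, and Atp5hl1. The names alone set the membership.

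The RNA came from the infarct zone, and there were 4 groups of 4 libraries. Sham rats had control surgery, MI rats had ligation of the left anterior descending coronary artery, and MI_soft and MI_stiff rats had the ligation and then a soft or a stiff hydrogel injected into the heart muscle. The labels used here leave out strain, age and time after surgery, and 1 label names MI/R, so whether flow was restored is not known. No label ties each library to its own animal. The p-values therefore describe only how far these libraries scatter, which may be technical.

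Oxidative phosphorylation is the last stage of aerobic energy supply, in the inner mitochondrial membrane. Complexes I and II pass electrons to ubiquinone, complex III hands them to cytochrome c, complex IV reduces oxygen, and complex V uses the resulting proton gradient to make ATP. Complexes I, III, IV and V combine subunits from the nucleus with subunits from mitochondrial DNA, whereas complex II is wholly nuclear. Heart muscle is among the tissues richest in these proteins, and it uses its own forms of several complex IV subunits.

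Of the 97 rows, 91 had enough counts to be tested (78 nuclear and 13 mitochondrially encoded). The 6 untested rows were Ndufs6, with 0 to 2 counts per library, Cox8c, and the pseudogene rows Ndufa13-ps1, Ndufv3-ps1, Cox6c-ps1 and Ndufb4l1-ps1. The heart form Cox7a1, and also Cox7b and Cox7b2, fit the name rule but had no row under these names among the 17085. Cycs, Atp5f1c, Atp5md and Ndufs5 had exactly the counts of another row in every library, so their values are uncertain as to source.

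Library totals lay between 10940685 and 14456188 counts. Between 25.1% and 50.5% of a library's counts were on the 13 mitochondrially encoded rows, so this share moves the scale of all other genes. In 4 libraries fewer genes had any count: 10470 in MI 2, 10958 in MI 3, 11283 in MI 4 and 11785 in MI_soft 4, against 12019 to 12820 in the other 12. Because 3 of the 4 MI libraries are among them, results that involve MI are also given without these 4 libraries, where MI is represented by MI 1 alone and is assumed to vary like the other groups. The RNA of cell type markers moved with the groups as well. The summed level of 11 cardiomyocyte markers had a median of 70400 CPM (counts per 1000000 counts, scaled by TMM) in Sham against 29400 in MI, 34700 in MI_soft and 30200 in MI_stiff, and that of 10 fibroblast markers went from 3280 to 22100, 16700 and 18200. The part of this shift in the results that follow was not tested. No cardiomyocyte or fibroblast marker was at 0 throughout a group. In bulk tissue fewer cardiomyocytes and less RNA per cardiomyocyte cannot be told apart, and the same limit holds for the rise of fibroblast markers. MI 1 also differed from MI 2 to MI 4 in other ways. Its skeletal muscle markers summed to 6707.3 CPM against 2745.2 to 2832.2, and its macrophage markers to 1723.3 CPM against 565.5 to 801.1. Its mitochondrially encoded share was 27.9% against 40.4% to 45.8%. In fits with MI 1 alone for MI, these traits and gene detection cannot be told apart.

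Regulatory sequence is shown for 4 members around which the results turn. They include both forms of complex IV subunit VIII, which were called in opposite directions in MI, and the muscle form of subunit VIa. The last is Ndufs1, the complex I member with the lowest fitted difference in MI. Each sequence is the stretch of 250 bases before the annotated start in RefSeq (assembly GRCr8). It is written 5′ to 3′ on the gene's strand, which is the minus strand for all 4. Capitals mark matches to the motifs searched. Cox8b lies at chr1:205408274-205408523, Cox8a at chr1:213833624-213833873, Cox6a2 at chr1:192219717-192219966 and Ndufs1 at chr9:72073606-72073855.
Cox8b: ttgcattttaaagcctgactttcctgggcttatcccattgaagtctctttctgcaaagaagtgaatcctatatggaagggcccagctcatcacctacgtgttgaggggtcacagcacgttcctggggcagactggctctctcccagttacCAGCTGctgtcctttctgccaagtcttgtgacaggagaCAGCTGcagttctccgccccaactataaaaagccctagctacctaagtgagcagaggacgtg
Cox8a: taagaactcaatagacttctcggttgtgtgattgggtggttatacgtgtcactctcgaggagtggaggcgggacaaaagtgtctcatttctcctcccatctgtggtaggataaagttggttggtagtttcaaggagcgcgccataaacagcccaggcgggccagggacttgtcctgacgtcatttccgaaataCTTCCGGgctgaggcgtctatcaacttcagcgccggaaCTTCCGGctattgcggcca
Cox6a2: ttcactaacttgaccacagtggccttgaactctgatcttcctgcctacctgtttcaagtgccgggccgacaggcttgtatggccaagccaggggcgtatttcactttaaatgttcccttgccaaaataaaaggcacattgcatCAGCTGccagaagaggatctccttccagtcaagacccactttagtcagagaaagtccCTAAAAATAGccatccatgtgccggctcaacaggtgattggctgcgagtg
Ndufs1: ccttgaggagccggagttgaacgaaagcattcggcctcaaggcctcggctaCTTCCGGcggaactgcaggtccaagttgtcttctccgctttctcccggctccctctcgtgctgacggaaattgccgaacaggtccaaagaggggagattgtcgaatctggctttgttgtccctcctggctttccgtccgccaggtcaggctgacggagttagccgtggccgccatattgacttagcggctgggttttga

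The motifs were searched on both strands in the 66 of 77 nuclear members (rows counted as pseudogenes aside) that had a promoter in the table. Cox8b, a form used in heart and skeletal muscle, had the E-box CAGCTG, a site type bound by muscle and other basic helix-loop-helix factors, at bases -100 to -95 and -62 to -57. Cox8a, the form of most tissues, had none of these and had the GABP motif CCGGAAG, read on the other strand, at -57 to -51 and -19 to -13. Cox6a2, also a muscle form, had an E-box at -107 to -102 and a match to the MEF2 motif, named for a muscle transcription factor, at -50 to -41. Ndufs1 had the GABP motif at -199 to -193. Over all 66 members the motif of GABP, a factor long tied to respiratory chain genes, was present in 27.3% of promoters, against 7.27% of the 33469 promoters of the table. The motif of NRF1, another such factor, was present in 10 members (15.2% against 3.75%). The ERR motif AAGGTCA was present in 5 (7.58% against 3.99%) and the YY1 motif AAGATGGC in 2 (3.03% against 1.63%). The E-box (12.1% against 12%) was about as frequent in members as in all promoters, and the MEF2 motif was present in 1 member (1.52% against 2.96%). For YY1 and MEF2 the members are too few to compare the shares. These are matches of letters only, and the matches shown do not overlap each other.

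The first question is how the subunit RNAs differed after ligation. In MI against Sham, 22 of 78 nuclear members fell and 4 rose (edgeR's quasi-likelihood test, adjusted p under 0.05 over all 11376 tested genes, the rule for every call here). Over all tested genes 16.4% were called lower and 20.2% higher. The median log2 difference of the nuclear members was -0.37, against 0.06 over all tested genes. Members of every complex fell, complex II as a whole. Of the 13 mitochondrially encoded members, 1 was called lower and 1 higher, and their median was -0.30. Without the 4 libraries of low gene detection the nuclear count became 44 lower and 2 higher with a median of -0.89, while 11.3% of all genes were then called lower and 16% higher. All 13 mitochondrially encoded members were then below 0, with a median of -1.14, and 3 were called lower, which were other members than the 2 called before. Of the 25 nuclear members above 0 in MI, 20 were then below 0, and none went the other way.

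**Figure D1:**
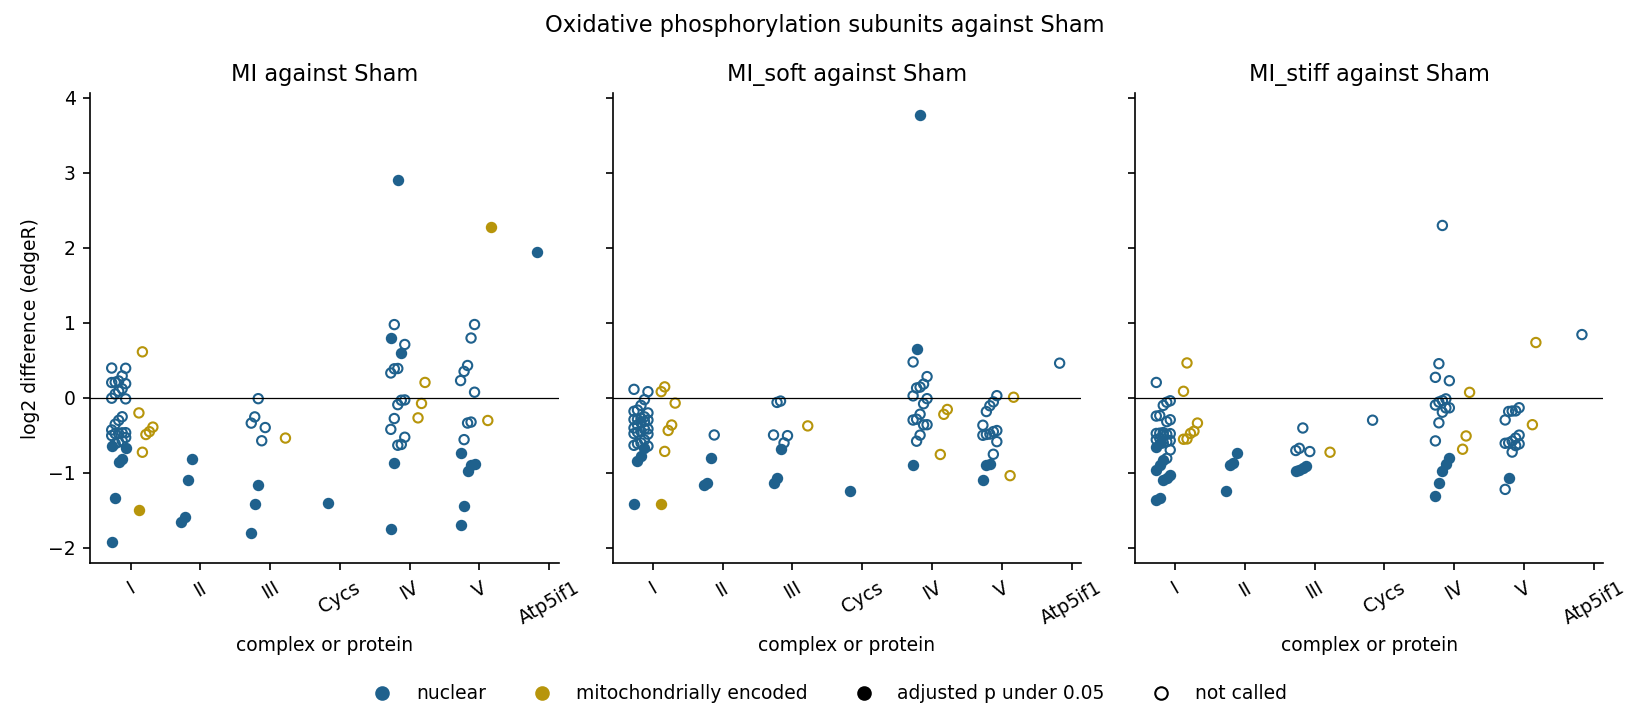
Log2 difference against Sham (edgeR fit) of each tested member, by complex, in MI, MI_soft and MI_stiff. Blue points are nuclear and ochre points mitochondrially encoded members, and filled points passed the adjusted p threshold; most lie below 0, complex II wholly so, and the points above 1 in MI are Cox6b2 (2.90), ATP8 (2.28) and Atp5if1 (1.94).

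In complex I, which oxidises NADH, 6 of 31 tested nuclear members fell in MI and none rose. Ndufs1, the large iron-sulfur subunit of the electron input arm, stood at 1357, 1365, 1296 and 1287 CPM in the 4 Sham libraries and at 350, 233.1, 522.8 and 294.6 in MI. It stood at 590, 429.4, 577.7 and 388.1 CPM in MI_soft and at 563.5, 525.1, 419.4 and 556.8 in MI_stiff. The 4 Sham libraries were close to each other, and every ligated library lay far below them without overlap. The difference was -1.92 ± 0.24 (log2, SE) in MI (adjusted p = 1.22e-05), -1.42 ± 0.23 in MI_soft (adjusted p = 0.000265) and -1.36 ± 0.23 in MI_stiff (adjusted p = 0.000455). Ndufa10, an accessory subunit of the membrane arm, was at 413 ± 9.4 CPM in Sham (SD, n = 4) and at 164 ± 29.8 in MI, a difference of -1.33 ± 0.18 (adjusted p = 3.66e-05).

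The other 25 nuclear members of complex I did not pass the test in MI, and 21 of all 31 lay below 0. Ndufv1, which carries the NADH-binding site, was at -0.59 ± 0.28 (adjusted p = 0.109). The highest was Ndufa6, an accessory subunit, at 0.40 ± 0.28 (adjusted p = 0.277), and its MI libraries did not move together. Its levels were 88.64 CPM in MI 1 but 193.5, 270.7 and 242.7 in MI 2 to MI 4, against 126.5 to 180.1 in Sham, so that MI 1 lay below every Sham library and the other 3 above. Without the 4 libraries of low gene detection Ndufa6 was at -0.75 (adjusted p = 0.0306), the opposite sign, and 19 of the 31 members were called lower.

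Complex II, succinate dehydrogenase, stands in both the citric acid cycle and the electron chain, and it was the only complex in which all tested members fell in MI. The flavoprotein Sdha was at 975.8, 964.9, 1156 and 1023 CPM in Sham and at 374.7, 209.3, 501.5 and 289.7 in MI. In MI_soft it was at 500.3, 409.7, 533 and 391.9, and in MI_stiff at 439.8, 440.1, 391.7 and 476. No ligated library reached the lowest Sham library. The difference was -1.58 ± 0.23 in MI (adjusted p = 6e-05), -1.17 ± 0.23 in MI_soft (adjusted p = 0.00111) and -1.24 ± 0.23 in MI_stiff (adjusted p = 0.000808). The membrane anchors Sdhc and Sdhd fell by 1.66 and 1.09 in MI, and the iron-sulfur subunit Sdhb fell by 0.81 (adjusted p = 0.0178). All 4 also fell in MI_stiff, by 0.73 to 1.24. In MI_soft Sdha, Sdhc and Sdhd fell, and Sdhb was at -0.49 ± 0.25 (adjusted p = 0.154). Leaving out Sham 2 ended the calls of Sdhc in MI_soft (adjusted p = 0.0509) and of Sdhb and Sdhd in MI_stiff (adjusted p = 0.0546 and 0.0763). MI_stiff 2 and Sham 3 had the same effect on Sdhb and Sdhd in MI_stiff, and MI_stiff 3 and Sham 1 on Sdhd (adjusted p from 0.055 to 0.0896).

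In complex III, 3 of 8 tested nuclear members fell in MI, and all 8 fitted differences were below 0. The core protein Uqcrc2 was at 1361, 1730, 1560 and 1468 CPM in Sham, at 390.2, 304.8, 667.6 and 400.8 in MI, at 790.5, 633.1, 725 and 650.6 in MI_soft and at 923.3, 832.5, 598 and 748.4 in MI_stiff. Every Sham library was above every ligated one, and the MI libraries were lowest on average. The differences were -1.79 ± 0.23 (adjusted p = 1.84e-05), -1.13 ± 0.23 (adjusted p = 0.00145) and -0.98 ± 0.23 (adjusted p = 0.00469). Cyc1, cytochrome c1, and Uqcrfs1, the Rieske iron-sulfur protein, fell by 1.41 and 1.16 in MI. The partner core protein Uqcrc1 was at -0.57 ± 0.32 in MI and did not pass the test (adjusted p = 0.165). Its MI 3 library, at 1681 CPM, lay within the Sham range of 1269 to 1779, and without MI 3 it was at -0.93 (adjusted p = 0.0213). The highest of the complex was the pseudogene row Uqcrb-ps1, at -0.01.

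Cycs, cytochrome c, the soluble carrier between complexes III and IV, gave the only call among members in a comparison of ligated groups. Its levels were 281.9, 438, 317.1 and 281.8 CPM in Sham, 100.5, 114, 154 and 133 in MI, 133.9, 159.3, 145.3 and 118.6 in MI_soft and 354.4, 312.3, 176.6 and 229.8 in MI_stiff. All MI and MI_soft libraries lay below all Sham libraries, whereas MI_stiff overlapped Sham and lay above every MI and MI_soft library. It fell in MI (-1.40 ± 0.23, adjusted p = 0.00021) and in MI_soft (-1.24 ± 0.23, adjusted p = 0.000788), and was at -0.30 ± 0.23 in MI_stiff (adjusted p = 0.388). In MI_stiff against MI it was higher by 1.10 ± 0.23 (adjusted p = 0.0356), and in MI_stiff against MI_soft it was at 0.94 ± 0.23 (adjusted p = 0.092). The call against MI lost the threshold under 10 of the alternatives, among them limma-voom (0.94, adjusted p = 0.0549), a fit of these 2 groups alone (adjusted p = 0.117) and leaving out MI 2, MI 4, MI_soft 1, MI_stiff 1, MI_stiff 2 or MI_stiff 4 (adjusted p from 0.0527 to 0.0954). As its counts equal those of LOC100363502, the signal cannot be assigned to the Cycs row alone.

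**Figure D2:**
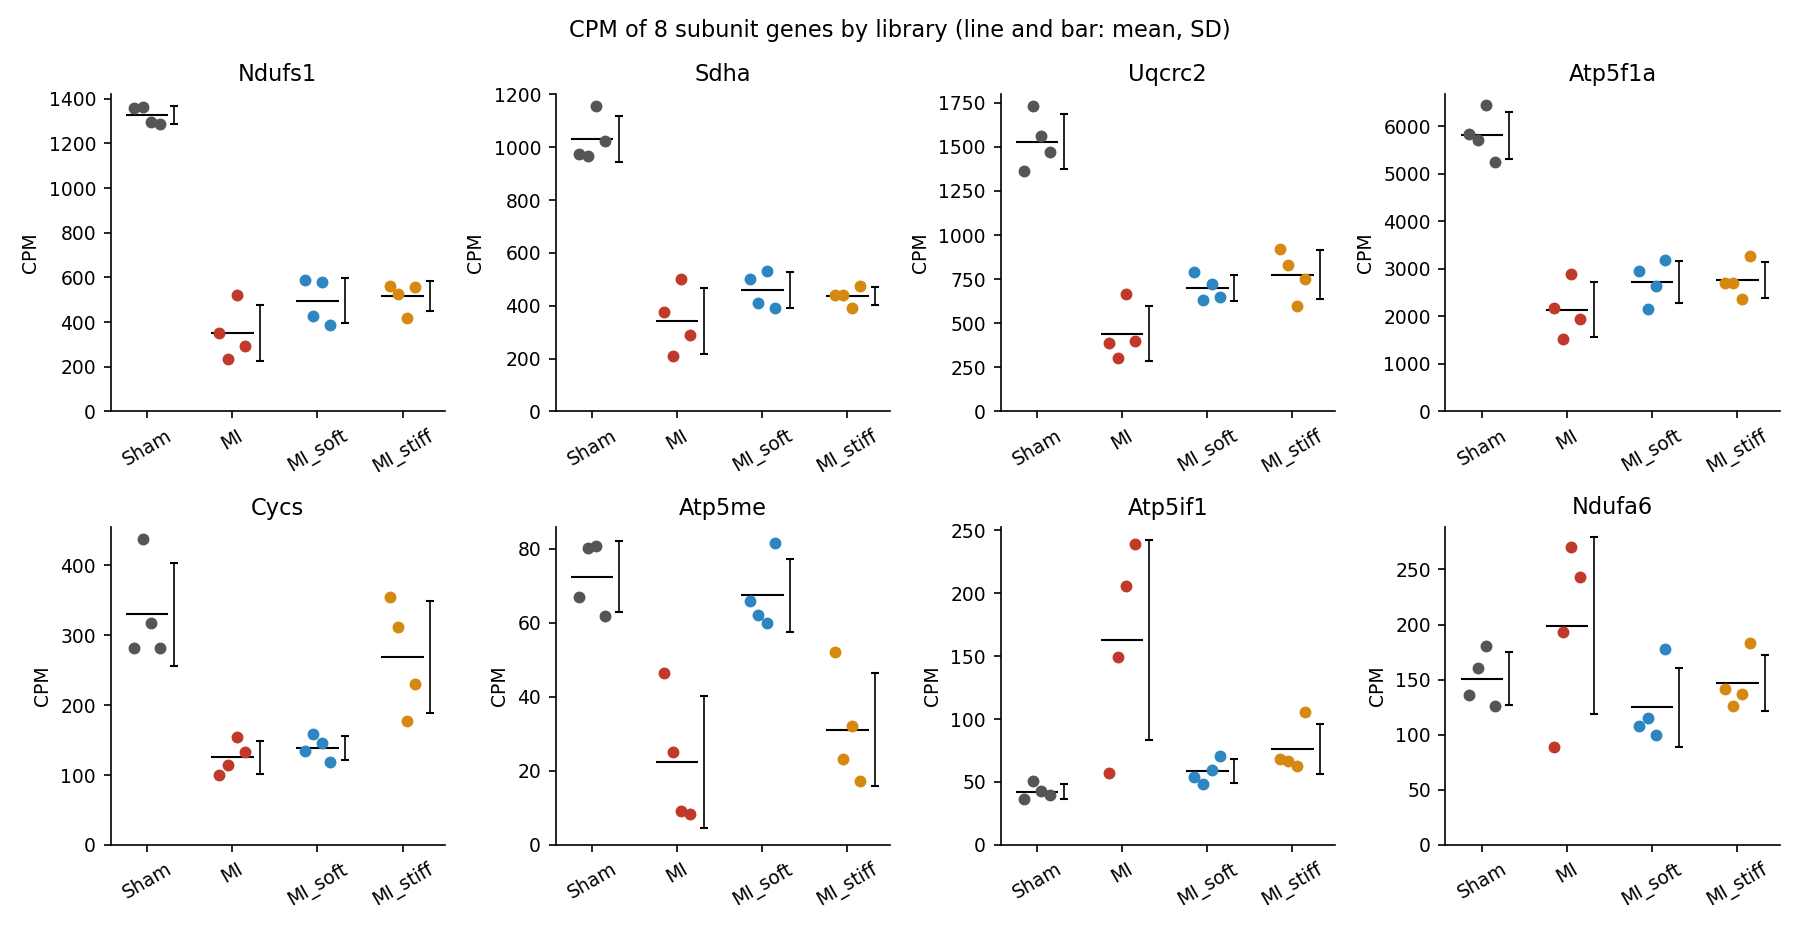
CPM of 8 members in each library (points), with the group mean (line) and SD (bar). For Ndufs1, Sdha, Uqcrc2 and Atp5f1a all ligated libraries lie below Sham, for Cycs the MI_stiff libraries overlap Sham, and for Atp5me, Atp5if1 and Ndufa6 the MI libraries are spread widely, with MI 1 (leftmost) apart from the others.

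Among the nuclear members of complexes I to V, calls went both ways in complex IV. In MI 2 of its 18 tested nuclear members fell and 3 rose, and the median was -0.03. When the 4 libraries of low gene detection were left out, 6 fell and 2 rose, with a median of -0.65. Both members that fell are heart and muscle forms. Cox8b was at 272.3, 320, 332.5 and 309.9 CPM in Sham, 119.7, 100.8, 71.49 and 74.53 in MI, 176.6, 164.5, 152.6 and 469.4 in MI_soft and 206.5, 70.77, 149.5 and 70.11 in MI_stiff. All MI and MI_stiff libraries were below all Sham libraries, and MI_soft was below Sham in 3 libraries and above it in MI_soft 4. The difference was -1.75 ± 0.38 in MI (adjusted p = 0.00194) and -1.31 ± 0.38 in MI_stiff (adjusted p = 0.0191), and in MI_soft it was -0.36 ± 0.37 (adjusted p = 0.494). Without the 4 libraries of low gene detection Cox8b in MI was at -1.35 and no longer called (adjusted p = 0.0629), and the MI_stiff call was lost without MI_stiff 2, MI_stiff 4 or Sham 2 (adjusted p from 0.0503 to 0.0677).

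Cox6a2 had the same pattern of calls. Its 4 Sham libraries were at 896.5, 1052, 1340 and 994.9 CPM, those of MI at 700.7, 741.2, 337.7 and 557.5, those of MI_stiff at 699.9, 414.3, 548.8 and 512, and those of MI_soft at 850.1, 818.3, 776.9 and 1808. Again MI and MI_stiff did not overlap Sham, and MI_soft 4 stood above all Sham libraries. The difference was -0.87 ± 0.30 in MI (adjusted p = 0.0277) and -0.98 ± 0.30 in MI_stiff (adjusted p = 0.0247). The MI call was lost without MI 3, MI 4, Sham 2, Sham 3 or the 4 libraries of low gene detection (adjusted p from 0.0602 to 0.132), and the MI_stiff call without MI_stiff 2, 3 or 4 or Sham 2 or 3 (adjusted p from 0.0519 to 0.0861).

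The 3 members that rose in MI were Cox8a, Cox7a2l and Cox6b2. Cox8a was at 62.73, 63.95, 73.37 and 59.51 CPM in Sham and at 93.61, 147, 79.46 and 129.6 in MI, with no overlap. Its difference was 0.79 ± 0.23 (adjusted p = 0.0138, or 0.0577 without MI 2), and it was 0.48 and 0.46 in MI_soft and MI_stiff without passing the test. Cox7a2l, which takes part in joining complexes III and IV into supercomplexes, rose by 0.59 ± 0.18 (adjusted p = 0.0186). Without the 4 libraries of low gene detection it was at 0.22 (adjusted p = 0.487), and the call was also lost without MI 4 or Sham 4. Cox6b2, best known as the testis form of subunit VIb, had 3, 3, 6 and 3 counts in Sham and 41, 46, 1 and 32 in MI, so MI 3 fell below Sham. It rose by 2.90 ± 0.85 in MI (adjusted p = 0.0133) and by 3.77 ± 0.87 in MI_soft (adjusted p = 0.00408), where it had 43 to 70 counts, and it was at 2.30 ± 0.84 in MI_stiff (adjusted p = 0.0615). Even so its mean level was 4.30 CPM in MI_soft, and it made up 2.7% of the counts of the Cox6b1 and Cox6b2 pair there.

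The balance within these pairs of forms does not depend on the scaling of the libraries. The share of Cox8b in the counts of Cox8a and Cox8b was 82.6% ± 1.22 in Sham (SD, n = 4) and lay between 81.3% and 83.9%. It was 56.1%, 40.7%, 47.4% and 36.5% in the MI libraries, 70.1%, 67.2%, 68.7% and 77.4% in MI_soft and 72.5%, 46.3%, 62.4% and 40.0% in MI_stiff. Every ligated library was below every Sham library, every MI_soft library was above every MI library, and MI_stiff spread across both. The share of Cox6a2 in the counts of Cox6a1 and Cox6a2 went the same way over a smaller range. It averaged 89.7% ± 0.936 for Sham, 78.0% ± 2.37 for MI, 84.4% ± 1.63 in MI_soft and 82.1% ± 1.12 in MI_stiff. The highest ligated library, MI_soft 4, was at 86.2%, under the lowest Sham library at 88.4%. MI_soft 4, whose levels of Cox8b and Cox6a2 were the highest of all libraries, therefore had shares below Sham. On the TPM scale, which corrects for length, the share of Cox8b was 95.8% in Sham and 77.7%, 92.0% and 82.8% in MI, MI_soft and MI_stiff.

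**Figure D3:**
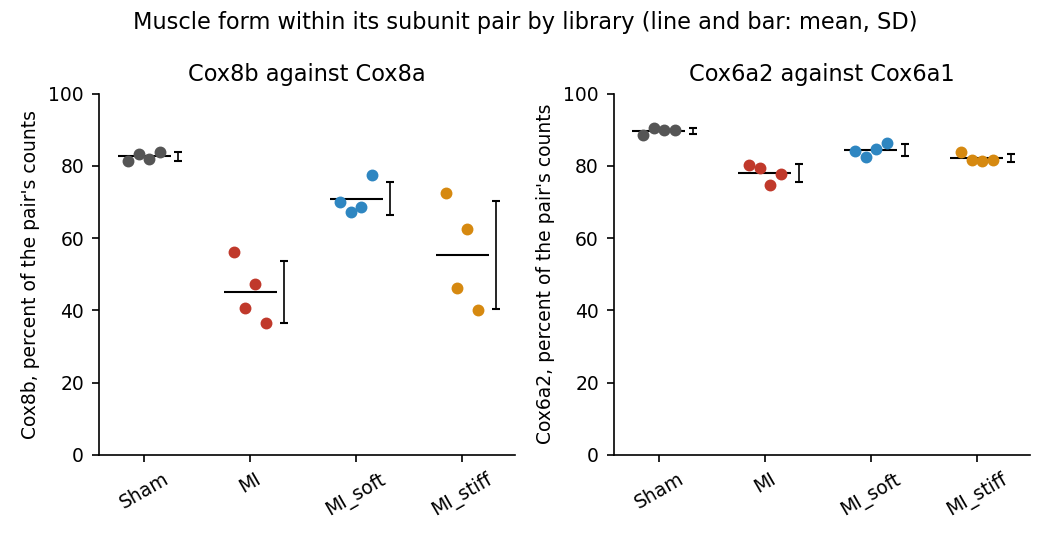
Share of the muscle form in the counts of its pair in each library, Cox8b with Cox8a on the left and Cox6a2 with Cox6a1 on the right, in percent, with the group mean (line) and SD (bar). Every ligated library lies below the lowest Sham library, which is at 81.3% for Cox8b and 88.4% for Cox6a2.

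Other pairs of forms showed less. Cox4i2, the form of subunit IV found chiefly in lung, made up 1.40% of the Cox4i1 and Cox4i2 counts in Sham and 2.13%, 1.98% and 2.00% in MI, MI_soft and MI_stiff, and the ranges of the libraries overlapped. Ndufa4l2 stayed between 0.21% and 1.79% of its pair with Ndufa4, itself a complex IV subunit, in all 16 libraries. Cox6a1 was called higher in MI_soft (0.65 ± 0.23, adjusted p = 0.0483). That call was lost under 18 alternatives, and without MI_soft 4 the difference was 0.39 (adjusted p = 0.161). Cox5a, a core-associated subunit of all tissues, fell in MI_soft (-0.89 ± 0.26, adjusted p = 0.0174) and in MI_stiff (-0.88 ± 0.26, adjusted p = 0.0218), and was at -0.62 ± 0.26 in MI (adjusted p = 0.0686). Without Sham 3 both calls were lost (adjusted p = 0.0557 and 0.0828), and the MI_stiff call also without MI_stiff 2 or 3. Cox4i1 was at 0.39 in MI, where MI 3 (2212 CPM) and MI 4 (1892) lay above all Sham libraries and MI 1 (683.7) below them. With the 4 libraries of low gene detection left out, Cox4i1 was at -0.71 (adjusted p = 0.0523).

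In complex V, the ATP synthase, 6 of 15 tested nuclear members fell in MI and none rose. Atp5f1a, the alpha subunit of the catalytic head, was at 5846, 5706, 6448 and 5252 CPM in Sham and at 2185, 1520, 2902 and 1950 in MI. It was at 2951, 2151, 2631 and 3186 in MI_soft and at 2700, 2709, 2367 and 3283 in MI_stiff. The groups did not overlap Sham, and the differences were -1.44 ± 0.22 (adjusted p = 8.25e-05), -1.09 ± 0.21 (adjusted p = 0.00126) and -1.07 ± 0.21 (adjusted p = 0.00166). Its partner in the head, the beta subunit Atp5f1b, moved less, by -0.74 ± 0.24 in MI (adjusted p = 0.0227), and did not pass the test in MI_soft (-0.50 ± 0.24) or MI_stiff (-0.64 ± 0.24). The MI call was lost without MI 2, MI 4 or Sham 2 (adjusted p from 0.053 to 0.0616).

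The membrane ring of complex V is built from 1 mature protein that 3 genes encode. Atp5mc1 and Atp5mc3 fell in MI, by 0.97 and 0.89, whereas Atp5mc2 was at -0.34 ± 0.28 (adjusted p = 0.373). Atp5me, a small subunit at the dimer interface, had the lowest difference of the complex, -1.69 ± 0.44 (adjusted p = 0.00613). Its MI libraries were at 46.41, 25.22, 9.10 and 8.47 CPM against 61.89 to 80.82 in Sham and 60.00 to 81.58 in MI_soft. The MI_stiff libraries, at 52.05, 23.32, 32.01 and 17.19 CPM, were also all below the Sham range, though without a call. With the 4 libraries of low gene detection left out, Atp5me was at -0.62 in MI. The highest row of the complex, Atp5hl1, is counted here with the pseudogenes. It was at 0.98 ± 0.66 in MI (adjusted p = 0.253), and at -1.50 without those libraries.

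Atp5if1, the small protein that binds the catalytic head and blocks ATP hydrolysis when respiration fails, was called higher in MI. Of the 15 tested nuclear members of complex V, 6 fell and 9 were not called. By fitted difference 9 of the 15 lay below 0, and others above it, such as Atp5pd (0.80) and Atp5po (0.35). Atp5if1 was at 36.54, 50.42, 43.01 and 39.54 CPM in Sham and at 56.86, 149.5, 205.4 and 238.9 in MI, all 4 above Sham. It rose by 1.94 ± 0.32 (adjusted p = 0.000214), and was at 0.46 ± 0.31 in MI_soft (adjusted p = 0.287) and 0.84 ± 0.32 in MI_stiff (adjusted p = 0.0651). The rise rests on MI 2 to MI 4, since without the 4 libraries of low gene detection it was 0.44 (adjusted p = 0.216).

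The mitochondrially encoded members are transcribed together from the mitochondrial genome, and their summed level varied widely within every group. The sum was 410500, 665200, 391900 and 448100 CPM for Sham, 224100, 477700, 414800 and 536900 for MI, 280500, 384800, 303800 and 492100 in MI_soft and 405300, 440900, 330400 and 193200 in MI_stiff. All 3 ligated groups overlapped Sham. COX1, the catalytic subunit of complex IV and the most abundant of the 13 per length in Sham (mean 93700 TPM), was at 139300 to 210800 CPM in Sham and at 71330, 127700, 182900 and 230400 in MI. Its difference was -0.07 ± 0.31 in MI (adjusted p = 0.868), -0.75 ± 0.31 in MI_soft (adjusted p = 0.0844) and -0.68 ± 0.31 in MI_stiff (adjusted p = 0.131). CYTB, the only complex III subunit of mitochondrial DNA, was at -0.54, -0.37 and -0.72, and none of these passed the test. The other complex IV subunits were nearer 0 in MI, with COX2 at 0.21 and COX3 at -0.27, and ATP6, the proton channel subunit of complex V, was at -0.30. Within the 13, COX1 accounted for 34.0% ± 2.17 of counts for Sham, 36.4% ± 8.48 for MI, 26.9% ± 3.77 in MI_soft and 29.8% ± 2.47 in MI_stiff, and COX2 made up 8.22% ± 0.708, 10.6% ± 2.7, 9.63% ± 0.412 and 12.4% ± 2.54 (SD, n = 4). COX1 thus took its smallest mean share in MI_soft, where 4 of 4 libraries lay below the lowest Sham library (30.2% at most against 31.7%).

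Of the 7 mitochondrially encoded subunits of complex I, 6 were below 0 in MI. ND1, ND2, ND3, ND4 and ND5 lay between -0.72 (ND5) and -0.20 (ND2), and none passed the test. ND4L fell in MI (-1.49 ± 0.48, adjusted p = 0.0209) and in MI_soft (-1.42 ± 0.48, adjusted p = 0.0364). It was at 810.2, 1559, 497.3 and 955.6 CPM in Sham, 323.8, 232.7, 465.6 and 335.8 in MI and 226.7, 406.2, 465.6 and 334.1 in MI_soft, with no overlap, and at 236 to 1602 in MI_stiff. The MI call was lost without MI 2 (adjusted p = 0.0588), Sham 2 (adjusted p = 0.0856) or the 4 libraries of low gene detection (adjusted p = 0.316), and the MI_soft call under 7 alternatives. ND6, which lies on the other strand, was at 0.61 ± 0.40 in MI (adjusted p = 0.243), and at -1.09 without those 4 libraries (adjusted p = 0.025). Antisense reads cannot be separated from it, since no source used here gives the strand setting of the counting.

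ATP8 was called higher in MI (2.28 ± 0.77, adjusted p = 0.0272), but its libraries were widely scattered. It was at 20.71 CPM in MI 1 and at 212.9, 948.8 and 531.7 in MI 2 to MI 4, against 32.53 to 145.6 in Sham. MI 1 was thus below every Sham library and the other 3 were above. The call was lost under 8 alternatives, and without the 4 libraries of low gene detection the difference was -2.07 (adjusted p = 0.217). ATP8 overlaps ATP6, and ND4L overlaps ND4, on shared transcripts, so how reads were split between them can move the smaller row.

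The complexes were also summed over their nuclear members. In MI the summed nuclear level was 41.2% of the Sham mean for complex II, 48.5% for III, 59.4% for V, 73.1% for I and 92.8% for IV. In MI_soft the values were 53.6%, 59.0%, 63.5%, 69.6% and 82.4% in that order of complexes, and in MI_stiff 51.6%, 56.1%, 61.7%, 63.2% and 74.1%. The order of the 5 complexes was thus the same in each ligated group, but the groups share the Sham libraries. For the sums of complexes II, III and V no ligated library overlapped Sham: the highest were 1953, 4584 and 17380 CPM and the lowest Sham libraries 2792, 5119 and 18040. Most of the complex V sum is Atp5f1a and Atp5f1b (5846 and 8290 of 19650 CPM in Sham 1), so it does not stand for the other members. By the median fitted difference in MI, complex V (-0.34, 9 of 15 members below 0) did not lie below complex I (-0.43). For complex I, MI 3 (8814 CPM) and MI_soft 4 (8941) lay within the Sham range of 7865 to 9904. For complex IV, MI 4 (6199 CPM) lay within and MI 3 (7127) and MI_soft 4 (6982) lay above the Sham range of 5158 to 6592. With the 4 libraries of low gene detection left out, complex I and IV were at 46.7% and 58.1% in MI and at 58.6% and 69.3% in MI_soft. Complexes II, III and V were then at 39.0%, 39.5% and 44.1% in MI.

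**Figure D4:**
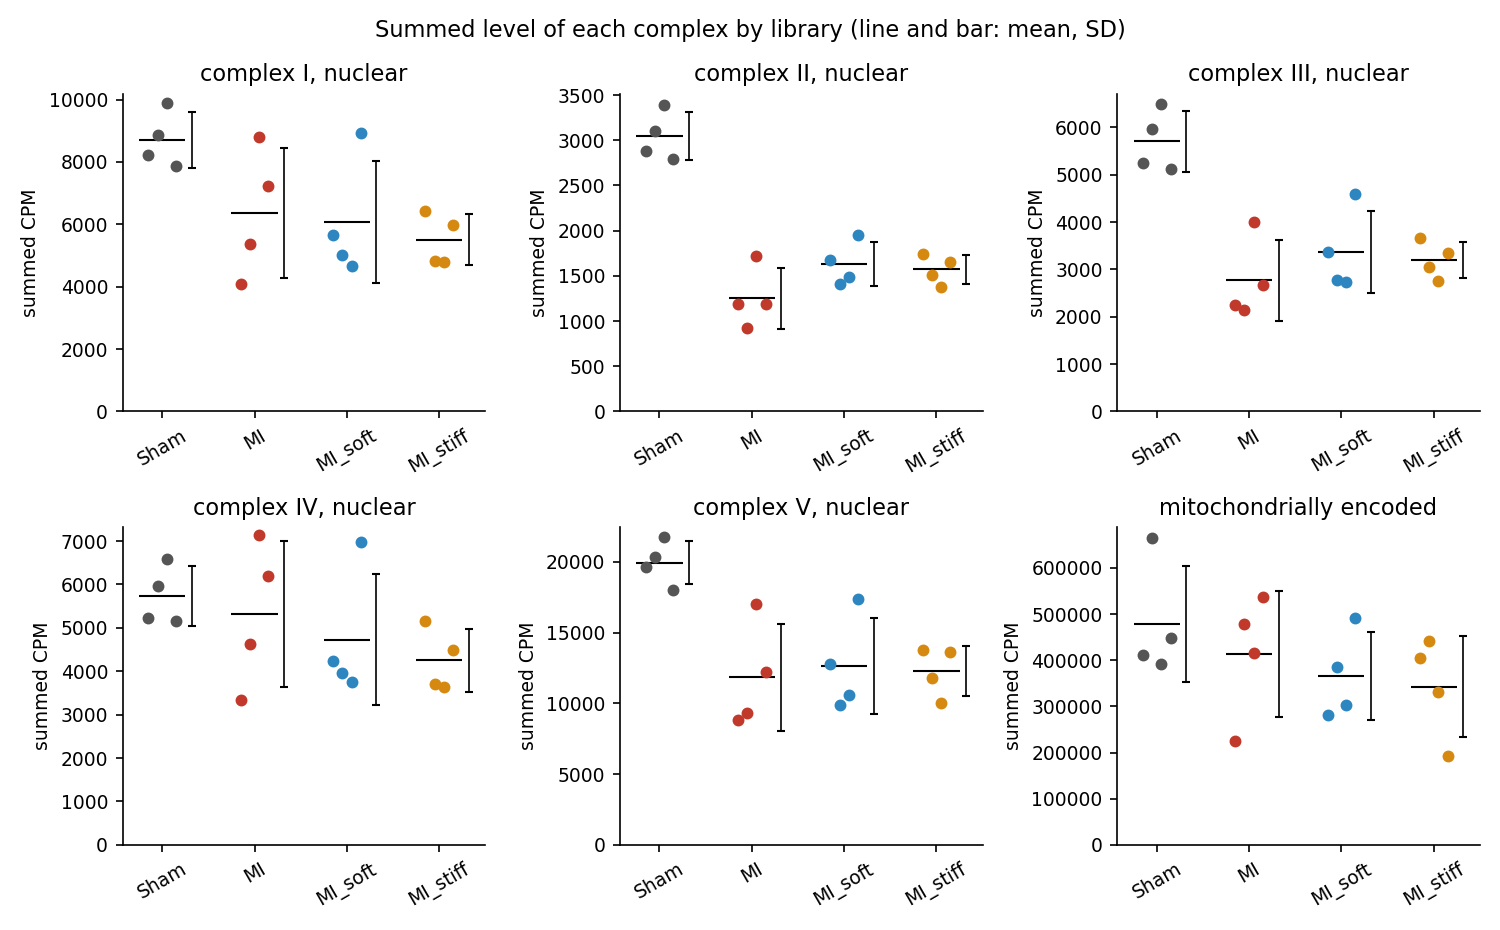
Summed CPM of the nuclear members of each complex and of the mitochondrially encoded members in each library (points), with the group mean (line) and SD (bar). The sums of complexes II, III and V separate Sham from all ligated libraries, that of V being mostly Atp5f1a and Atp5f1b. In complex I, complex IV and the mitochondrially encoded sum some ligated libraries reach the Sham range.

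Nuclear and mitochondrially encoded members together can be set against each other as a ratio. Summed mitochondrially encoded CPM was 11.1 ± 2.89 times the nuclear sum in Sham, 15.3 ± 5.12 times in MI, 13 ± 2.7 times in MI_soft and 12.9 ± 4.59 times in MI_stiff (SD, n = 4). The libraries ranged from 8.08 to 14.9 in Sham and from 6.56 to 21.1 over the ligated groups, so the spread within groups was as large as the differences between them. Set against the summed cardiomyocyte markers, the nuclear members had higher means in the ligated groups. There were 60.5 ± 5.69 CPM of nuclear members for every 100 CPM of markers in Sham against 92.8 ± 17.5 in MI, 74.5 ± 3.97 in MI_soft and 93.1 ± 16.2 in MI_stiff. The lowest ligated library was MI 1, at 68.8, and the highest Sham library was Sham 2, at 69.1. Other cells of the tissue also express these genes, and their part in the ratio was not tested.

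The second question is whether hydrogel changed these levels. In MI_soft against Sham, 15 nuclear members fell and 2 rose, where 26.1% of all tested genes were called, 9.71% lower and 16.4% higher, and 1 mitochondrially encoded member fell. The 15 included 4 of complex I, Ndufs1 and Ndufa10 among them, 3 of complex II, 3 of complex III, Cox5a, 3 of complex V and Cycs. Cyc1 (-0.68, adjusted p = 0.0448) lost its call under 10 alternatives, and Atp5mc3 (-0.88, adjusted p = 0.0179) lost it without MI_soft 3 or Sham 2. Without MI_soft 4, 29 fell and 1 rose, and without Sham 2, 10 fell and 1 rose. In MI_stiff against Sham, 24 nuclear members fell and none rose, where 8.44% of all tested genes were called lower and 12.7% higher, and no mitochondrially encoded member was called (2 at an unadjusted p under 0.05, and 1 call by DESeq2). The 24 included 10 of complex I, 4 each of complexes II and III, 5 of complex IV and Atp5f1a. Without MI_stiff 2 the count was 13 lower and 1 higher, and without Sham 3 it was 13 lower. Leaving out the 4 libraries of low gene detection, none of which is a Sham or MI_stiff library, gave 47 lower and 3 higher, and the cause was not tested. The medians of the nuclear members were -0.41 and -0.57, against 0.007 and 0.017 over all genes.

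Directly compared, the ligated groups differed little in these RNAs by the test. In MI_soft against MI no member was called, where 0.0264% of all tested genes were called. At an unadjusted p under 0.05 there were 19 nuclear members, 10 lower and 9 higher, and 2 mitochondrially encoded members. DESeq2 called 5 nuclear members and 1 mitochondrially encoded member. With limma-voom and quality weights 14 nuclear members and 1 mitochondrially encoded member were called. Without MI 1, the MI library of full gene detection, 17 nuclear members were called, 13 lower and 4 higher. The count thus moved with the method as well as with MI 1, and the cause was not tested. When the 4 libraries of low gene detection were left out, 35 of the 78 nuclear members moved from below to above 0 and 4 the other way, with MI 1 alone for MI.

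In MI_stiff against MI the only call was Cycs, where 1.19% of all tested genes were called and 0.492% were called higher. At an unadjusted p under 0.05 there were 13 nuclear members, 9 lower and 4 higher, and 1 mitochondrially encoded member. Without MI 1 the calls were 9 lower and 3 higher, without MI 3 there were 3 calls and without MI_soft 4 there were 4. In MI_stiff against MI_soft no member was called, where 0.0967% of all tested genes were called and 0.0352% called lower. Here 15 nuclear members and 1 mitochondrially encoded member reached an unadjusted p under 0.05, 14 of the 15 with lower values in MI_stiff, and DESeq2 called 3. Cox6a2 was at -0.97 ± 0.30 (adjusted p = 0.16) and Cox8b at -0.95 ± 0.38 (adjusted p = 0.267) in this comparison. A p above the threshold does not show that the groups were alike.

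Members also differed by the length of their transcripts, a property the choice of genes did not use. Effective length was read from the deposited counts and TPM and is given as a percent of that of Ndufs1, the longest. Across 75 nuclear members the Spearman correlation of length with the difference from Sham was -0.44 in MI, -0.59 in MI_soft and -0.31 in MI_stiff. Over 10434 tested genes with a length it was -0.15, -0.21 and -0.039. These are descriptions across genes, which are not independent and share the same libraries. Of the 37 longer members 16 fell and 1 rose in MI, with a median of -0.57, whereas of the 38 shorter members (up to 13.9% of Ndufs1) 6 fell and 3 rose, with a median of -0.17. In MI_soft the medians of the longer and shorter members were -0.56 and -0.24. In MI_stiff they lay closer together, at -0.61 and -0.47, and 13 longer and 10 shorter members fell. With the 4 libraries of low gene detection left out, the correlation in MI was -0.50, with medians of -1.08 and -0.76. Atp5me and Cox8b, at 1.3% and 2.03% of Ndufs1, are the shortest of the 6 shorter members that fell in MI. Their effective length itself differed between libraries, from 0.982% to 1.70% for Atp5me.

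**Figure D5:**
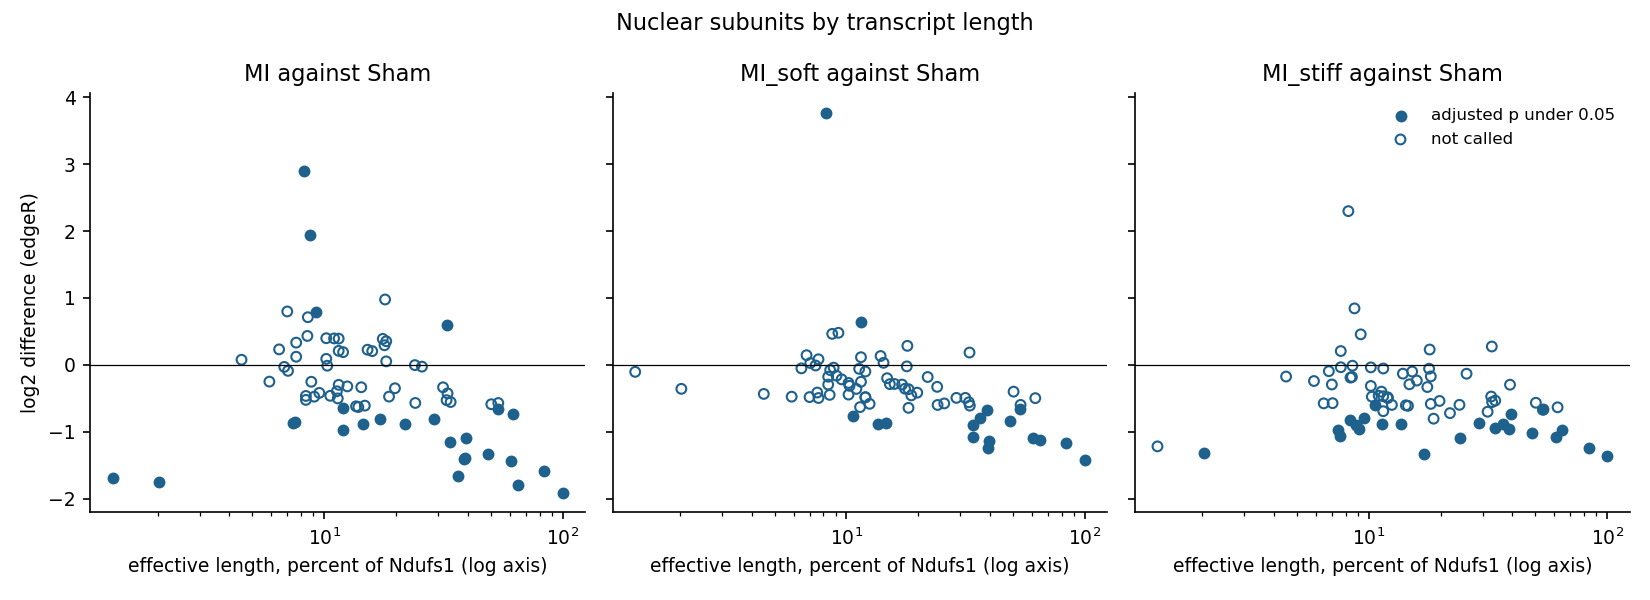
Log2 difference against Sham of 75 nuclear members by effective length, in percent of Ndufs1 on a log axis, in MI, MI_soft and MI_stiff. Filled points passed the adjusted p threshold; longer members tend to lie lower, with Spearman correlations of -0.44, -0.59 and -0.31, and the short Atp5me and Cox8b are low in MI as well.

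Genes that build and supply the complexes were counted from lists chosen for their roles. Of 34 tested assembly factors, 17 fell in MI, 11 in MI_soft and 12 in MI_stiff, and none rose. For these lists the shares of all tested genes called lower were 16.4%, 9.71% and 8.44% in the same order. When the 4 libraries of low gene detection were left out, 13 of the 34 fell in MI, where 11.3% of all genes were called lower. Coa5 and Cox10, which serve complex IV (Cox10 in making its heme), fell by 3.05 and 2.88 in MI, and Cox10 was at -1.54 (adjusted p = 0.0345) without those libraries. Taco1, which activates translation of COX1, was at 4.83 CPM in Sham and 0.946 in MI and fell by 2.33 (adjusted p = 0.0422), a call lost under 11 alternatives. Of 18 genes for mitochondrial DNA upkeep, transcription and translation, 8, 6 and 8 fell and none rose, and 8 fell in MI also without those libraries. They included Gfm1, a mitochondrial elongation factor (-1.69 ± 0.23, adjusted p = 3.09e-05), Tefm, which aids elongation by the mitochondrial RNA polymerase (-1.24), and the nuclease Mgme1 (-1.70, and -1.12 without the 4 libraries of low gene detection, adjusted p = 0.081).

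Of 17 transcriptional regulators of mitochondrial genes, 10 fell and 1 rose in MI, 4 fell in MI_soft, and 5 fell and 1 rose in MI_stiff. In MI without the 4 libraries of low gene detection 6 fell and none rose, and the median went from -1.44 to -0.62. Ppargc1a, the coactivator at the head of mitochondrial biogenesis, was at 14.9 ± 4.33 CPM in Sham against 1.51 ± 0.744 in MI, 2.53 ± 1.63 in MI_soft and 3.04 ± 1.27 in MI_stiff. It fell by 3.29, 2.54 and 2.28 (adjusted p = 0.000441, 0.0034 and 0.00789). The orphan receptors Esrrg and Esrrb, which bind the ERR motif, fell in MI. Esrrg fell by 3.67, and was at -2.07 without those libraries (adjusted p = 0.0244). Esrrb fell by 3.62, from 6.55 to 0.512 CPM, and was without a call when the 4 libraries of low gene detection were left out (-2.62, adjusted p = 0.0874). The member that rose was Nfe2l2, a regulator of the oxidative stress response, at 0.69 in MI and 0.59 in MI_stiff, named after its values were seen. Its MI call was lost without those libraries (0.24, adjusted p = 0.44).

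Of 27 carriers and energy transfer partners, 19, 17 and 12 fell, and 20 fell in MI without the 4 libraries of low gene detection. The 1 that rose in MI was Cox7a2l, described above. Hccs, which attaches heme to cytochrome c, fell by 3.22, the aspartate and glutamate carrier Slc25a13 by 2.83, and Mpc2 of the pyruvate carrier by 2.17. Slc25a13 was at -1.78 without those libraries (adjusted p = 0.00146). In MI_stiff against MI_soft 1 gene of this list was called higher, Ucp3, a mitochondrial uncoupling protein of muscle (2.20 ± 0.28, adjusted p = 0.00273), likewise named after its values were seen. Of 16 genes of mitochondrial membranes and import, 13 fell and 1 rose in MI, 8 fell in MI_soft and 10 in MI_stiff. In MI without the 4 libraries of low gene detection 9 fell and none rose. Hspa9, the import motor chaperone, fell by 2.14, Opa1, which fuses inner membranes, by 1.89, and Dnm1l, which divides mitochondria, by 1.95. The exception was Tomm7, a small subunit of the outer membrane import pore, which rose by 1.55 in MI, or 0.65 without those libraries (adjusted p = 0.2), and was also named after its values were seen.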

How the data were processed

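Bulk RNA-seq of rat infarct zone was analysed in 16 libraries, 4 per group, grouped by the labels. The authors deposited expected counts per gene (estimated reads, 0.785% of them not whole, rounded here) and TPM for 17085 genes. The submitters' processing notes name RSEM 1.3.1, STAR 2.7.3a and the build rn7, and no annotation was named there. Counts were filtered with edgeR's default filter by expression (11376 genes left), scaled by TMM and tested with edgeR 4.0.16 (R 4.3.3) by its robust quasi-likelihood test, all 16 libraries in 1 fit with 1 coefficient per group. Benjamini-Hochberg adjustment ran over all tested genes, and the common biological coefficient of variation was 0.403. Alternatives were DESeq2 1.42.0, limma-voom 3.58.1 with quality weights, scaling without mitochondrially encoded rows, no filter, fits of 2 groups, a replicate block and left-out libraries. The script was tested on simulated counts. The members and lists were chosen with earlier results of these data known. Named with values were the mitochondrially encoded rows, pairs of tissue forms, core subunits, the 2 lowest and the highest of each complex in MI, members called against the majority or between ligated groups, and the 3 largest changes of each list. Transcript length and the 4 promoters shown were chosen after seeing the data. The single values of 1 member are not reported here.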

Additional observations from a re-analysis of the deposited data

Results flagged for a closer look

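In groups of 4 libraries, 18 of 224 sets of values had 1 library that stood apart by Dixon's criterion (its gap to the nearest other library, as a share of the group's range, was above the 95% critical value), where chance gives about 1 in 20. Of the 18, 10 were MI_soft 4, in each case as the highest. In this library Cox6a2 was at 1810 CPM against 777 to 850 in the other 3, and Cox8b was at 469 against 153 to 177. Cox8a was at 137 CPM against 69.4 to 80.3, Cox6b1 at 266 against 118 to 132, Cox4i1 at 1380 against 682 to 797 and Cox7a2 at 81.9 against 34.3 to 40.2. The nuclear members of complex IV summed to 6980 CPM there, against 3750 to 4230. Ndufv1 (950 CPM), Atp5mc2 (653) and ND6 (4260) stood apart in the same library. MI_soft 4 was also 1 of the 4 libraries of low gene detection, and its summed cardiomyocyte markers (56900 CPM) were the highest of the 12 ligated libraries.

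Sham 2, the library with the largest mitochondrially encoded share, stood apart for COX1 (211000 CPM against 139000 to 150000) and COX2 (53300 against 33000 to 36200). The others were in different libraries. Ndufv1 was high in Sham 3 (881 CPM) and in MI 3 (735). Cox7a2l was low in Sham 4 (110 CPM). Atp5if1 was high in MI_stiff 4 (106 CPM against 63.0 to 68.3), Cyc1 was high in MI_stiff 1 (666 against 494 to 509) and Sdhb was low in MI_stiff 2 (294 against 397 to 402).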

How the results depend on the processing

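Nuclear calls are given here in the order MI, MI_soft and MI_stiff against Sham (26, 17 and 24), then MI_soft and MI_stiff against MI (0 and 1) and MI_stiff against MI_soft (0). DESeq2 gave 29, 21, 31, 5, 4 and 3, limma-voom with quality weights 31, 56, 49, 14, 4 and 6, and fits of only the groups compared 26, 20, 47, 0, 0 and 0. Without the 4 libraries of low gene detection the counts were 46, 51, 50, 0, 1 and 1, and leaving out 1 library at a time gave 21 to 34, 11 to 30, 13 to 32, 0 to 17, 0 to 12 and 0 to 0. Scaling without the mitochondrially encoded rows gave 27, 19, 26, 0, 1 and 0, and no filter gave 26, 16, 22, 0, 1 and 0. Of the 26 calls in MI, 18 remained without the 4 libraries. For each change of count the cause was not tested. Same-numbered libraries of different groups correlated at -0.285 to 0.176 (median -0.027), and differently numbered ones at -0.309 to 0.383 (median 0.02). For 0 of 16 libraries was the own number the best match in every other group at once. This is a strict criterion, so whether replicate numbers pair some libraries was not settled. With a replicate block the counts were 25, 14, 23, 0, 0 and 0, and mitochondrially encoded calls were 1, 1, 0, 0, 0 and 0. Mitochondrially encoded calls (2, 1, 0, 0, 0 and 0) were 2, 2, 1, 1, 0 and 0 by DESeq2, 3, 6, 6, 1, 0 and 1 by limma-voom, 1, 1, 0, 0, 0 and 0 with no filter, 1, 3, 1, 0, 0 and 0 with the 2 groups alone, and 3, 1, 2, 0, 1 and 0 without the 4 libraries. Leaving out 1 library at a time they were 1 to 3, 0 to 2, 0 to 1, 0 to 2, 0 to 1 and 0 to 0.

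Without the 4 libraries of low gene detection 20 of 78 nuclear and 3 of 13 mitochondrially encoded members changed sign in MI against Sham. Among those named by the rule, ATP8 was at -2.07, Atp5hl1 at -1.50, ND6 at -1.09, COX2 at -0.91, Cox7a2 at -0.85, Ndufa6 at -0.75, Cox4i1 at -0.71 and Cox4i2 at -0.49. With limma-voom COX1 was at 0.15, Ndufa4 at 0.09 and Cox6b1 at 0.05, and with the replicate block Uqcrb-ps1 was at 0.02. With 1 library left out at a time, ATP6 ranged from -0.53 to 0.02, COX1 from -0.34 to 0.12, COX2 from -0.04 to 0.42, Cox6b1 from -0.20 to 0.04, ND2 from -0.45 to 0.13, Ndufa4 from -0.32 to 0.18 and Uqcrb-ps1 from -0.13 to 0.13. Depth limits Cox6b2 and Uqcrb-ps1 most, whose lowest libraries had 1 and 6 counts.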
